A study of Heliocidaris erythrogramma with 7 samples.

Results

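The innate immune receptor and effector genes of *Heliocidaris erythrogramma* (*He*), a sea urchin whose larva does not feed, were taken here as the features whose annotated name begins with *srcr*, *tlr*, *nlr*, *macpf*, *il17*, *irf* or *clect*, or with the older numeric name of the transformer (*trf*) family of sea urchins. A feature also had to reach at least 20 unique molecular identifiers (UMIs, counted transcript molecules) summed over the 7 libraries. This rule gave 537 genes, among 38707 features in all and 18101 features with at least 20 UMIs. A further 899 features with such a name stayed below the minimum, of the 1436 that carried one, and 418 of these had no UMI. Just inside the minimum, 10 genes had 20 UMIs and 9 had 21, and just outside it 9 features had 19 and 9 had 18.

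The genes comprised 186 *nlr*, 176 *clect*, 121 *srcr*, 26 *macpf*, 18 *tlr*, 4 *trf*, 3 *irf* and 3 *il17* features. The *tlr* family was the least often detected, with 18 of 245 named features reaching 20 UMIs, against 186 of 501 for *nlr*, 176 of 348 for *clect* and 121 of 257 for *srcr*. Together they held 329027 UMIs, which was 0.705% of all UMIs, with a median of 79 UMIs per gene and 235 genes at 100 UMIs or more. A single gene, *macpfd.3* (HER_29018.t1), held 42.3% of these UMIs. The 537 genes carried 277 different names, and 376 of them shared a name with another of the genes. Reads of near-identical copies can be divided among copies or left uncounted, so values of same-named genes are uncertain in that respect.

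Sea urchins are known for large families of genes that recognize microbes. Scavenger receptor cysteine-rich (SRCR) proteins, Toll-like receptors (TLR) and the intracellular NOD-like receptors (NLR) sense microbial molecules, and C-type lectin domains (*clect*) bind sugars in many proteins, some of them outside immunity. IL17 is a secreted cytokine and IRF proteins are transcription factors that act downstream of immune signals. MACPF proteins share a domain with perforin and complement, which form pores in membranes, and the transformer (Trf) proteins are diverse secreted effectors described in *Strongylocentrotus purpuratus*. In sea urchin larvae the immune cells come from the mesoderm. Blastocoelar cells are phagocytic and depend on the transcription factor *scl*, and pigment cells make the pigment echinochrome through the polyketide synthase *pks1*.

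Whole embryos and larvae were sampled at 6, 9, 12, 16, 20, 24 and 30 hours post fertilization (hpf), with no treatment or genotype named in the labels, dissociated, fixed in methanol and profiled by droplet 3′ scRNA-seq. Each time point had 1 library, so time points have no replicates. Calls, sums and folds between cell groups pool the libraries from 12 to 30 hpf, so they also carry differences in the mix of time points. For some named genes the libraries in each direction were counted as well. No test was made, since the genes named were chosen with these contrasts known. The intervals given are exact 95% intervals that cover counting error only. The libraries held 486 (16 hpf) to 5346 (30 hpf) cells after filtering, with a median of 1273 to 2581 UMIs per cell. Levels are given as CPM, the UMIs of a gene scaled to 1 common total per library or cell group, and 3 counts correspond to 3.20 CPM at 16 hpf and to 0.279 to 0.625 CPM in the other 6 libraries. Of 23109 different barcode sequences, 64 occurred in more than 1 library. When a library is summed, fewer cells of a type and less RNA per cell cannot be told apart.

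To locate the genes, the 17057 cells at 12 to 30 hpf were gated on raw UMIs. The *scl*-positive group (at least 1 *scl* UMI and no *pks1* UMI) had 1935 cells, the *pks1*-positive group (the converse) had 622, and the ectoderm marker-positive group had 10954. The last needed at least 2 UMIs over 18 ectoderm markers and none of *scl*, *pks1* or the gut gene *endo16*. A further 307 cells held both *scl* and *pks1*, 238 of them at 12 hpf, and 3239 cells remained. The groups drew unequally on the libraries. The 12 hpf library gave 64336 of the 1110181 UMIs of the *pks1*-positive group. It gave 1288024 of 3968599 UMIs in the *scl*-positive and 5209726 of 19155302 in the ectoderm marker-positive group. The *scl* gate did not exclude ectoderm or gut markers. Among *scl*-positive cells single ectoderm markers were at 4.03 (*foxabl*) to 231 CPM (*univin*), against 61.9 and 792 CPM in ectoderm marker-positive cells, and *endo16* was at 221 CPM. The gates are not cell types. As sums, the mesodermal and pigment markers that they did not use were highest in the *scl*- and *pks1*-positive groups. Singly, *hhex* was higher in cells with both gate genes (1356 CPM) than in *scl*-positive cells (872 CPM). So were *hox11/13c* and *gcm*, at 3625 and 124 CPM, against 2538 and 65.8 CPM in *pks1*-positive cells. The summed level of 5 mesoderm and blastocoelar markers was 5474 CPM in *scl*-positive cells (4129 to 6360 over libraries) and 602 CPM in *pks1*-positive cells (376 to 979), against 86.4 CPM in ectoderm marker-positive cells (46.3 to 122). The summed level of 4 pigment markers was 1226 CPM in *scl*-positive cells (314 to 2873) and 40152 CPM in *pks1*-positive cells (14689 to 47553), against 50.8 CPM in ectoderm marker-positive cells (12.3 to 114), with *fmo* at 0 in all 3 groups. Skeletal markers summed to 156 CPM in *scl*-positive and 5.40 CPM in *pks1*-positive cells, against 5.74 CPM in ectoderm marker-positive cells, and gut and pouch markers to 218, 373 and 320 CPM in the same groups. Neural markers summed to 9112 CPM in *scl*-positive and 4294 CPM in *pks1*-positive cells, against 4314 CPM in ectoderm marker-positive cells, nearly all of it from *calml1*, at 9092, 4285 and 4302 CPM in these groups, and the part of such cells in the results was not tested.

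Most of the genes lay within 2-fold between these groups, and within the larger families different genes were higher in different cells. On a log2(CPM + 5) scale, 38 of 537 genes (7.08%) were at least 2-fold higher in *scl*-positive than in ectoderm marker-positive cells, where the share over all 18101 features was 6.26%. The number at least 2-fold lower was 11 (2.05%), against 6.7% of all features, and was 6 without the 24 hpf library. In *pks1*-positive cells 37 genes (6.89%) were at least 2-fold higher and 20 (3.72%) at least 2-fold lower, against 6.36% and 12.2% of all features. The shares of higher genes were thus near the background. Among the 235 genes with at least 100 UMIs they were 12.8% for *scl* and 10.2% for *pks1*, against 7.83% and 7.25% of features of that depth.

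The overlap of the genes high in *scl*-positive cells and those high in *pks1*-positive cells was near that of all features. There were 10 genes (1.86%) at least 2-fold higher in both groups, against 1.71% of all features, and 4 of these were *srcr* and 3 *trf*. Lower in both were 10 genes (1.86%), against 5.6% of all features. Set against each other, *scl*-positive cells were at least 2-fold higher than *pks1*-positive cells for 39 genes (7.26%) and at least 2-fold lower for 22 (4.10%), against 10.6% and 5.49% of all features. The median log2 ratio over the 537 genes was 0.01 for *scl* and -0.03 for *pks1*, against -0.02 and -0.16 over all features. A few genes of each family therefore carried the differences described below.

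**Figure D1:**
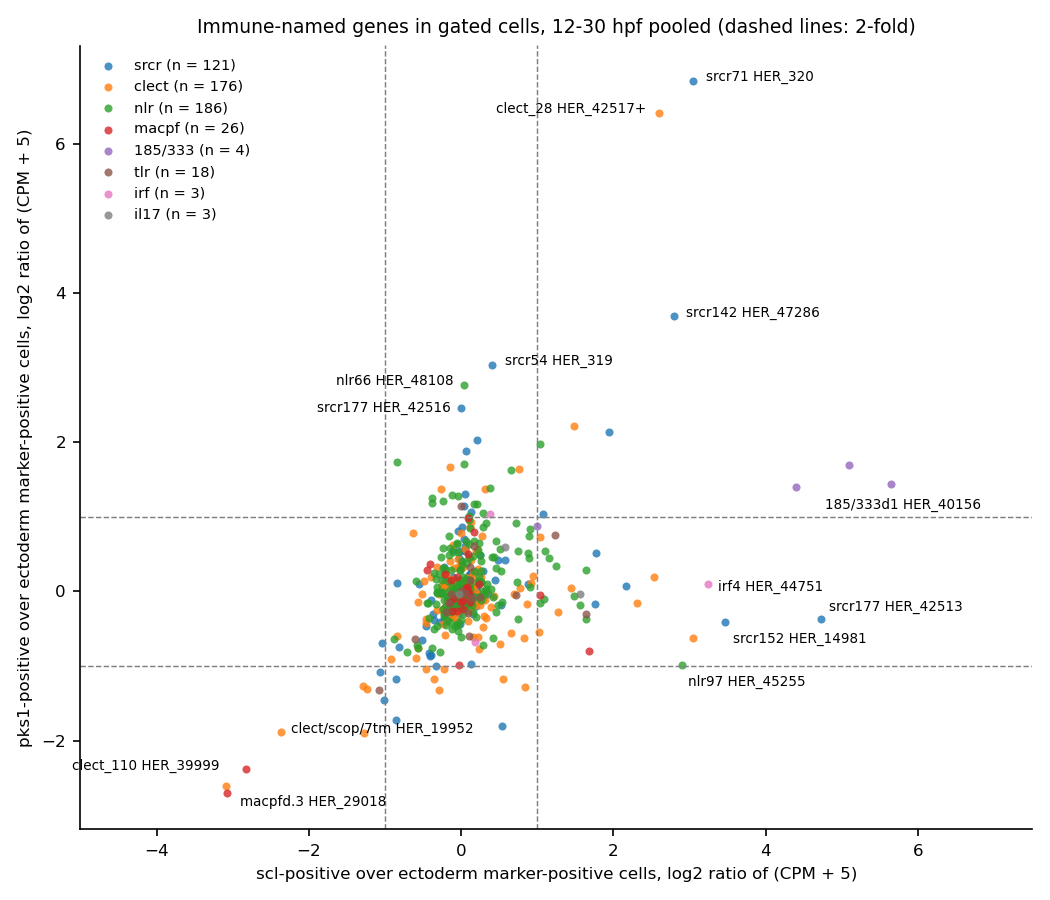
Each point is 1 of the 537 genes, coloured by family, with the log2 ratio of CPM + 5 in *scl*-positive over ectoderm marker-positive cells on the x axis and in *pks1*-positive over ectoderm marker-positive cells on the y axis, pooled over 12 to 30 hpf. Most points lie between the dashed 2-fold lines, with 3 *trf* genes, labelled by their deposited family name, and *srcr177* (HER_42513.t1) far to the right, *srcr71* and *clect_28* at the top and *macpfd.3* and *clect_110* at the lower left.

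The transformer effectors were concentrated in *scl*-positive cells. Their summed level was 4631 CPM in *scl*-positive and 267 CPM in *pks1*-positive cells, against 85.4 CPM in ectoderm marker-positive cells. Cells with both *scl* and *pks1* held 2138 CPM, and the cells in none of the gates 1196 CPM. The main gene, HER_40156.t1, measured 4.66, 772, 6062, 8039 and 4642 CPM in *scl*-positive cells at 12, 16, 20, 24 and 30 hpf. The same gene was at 0, 117, 246, 253 and 211 CPM in *pks1*-positive cells and at 9.02, 3.63, 23.1, 126 and 139 CPM in ectoderm marker-positive cells. From 16 hpf on, the *scl*-positive cells were far above the *pks1*-positive and ectoderm marker-positive cells, and at 12 hpf they were not above the latter. The few cells with both *scl* and *pks1* held 6.09, 1573, 6903, 10070 and 3749 CPM at 12 to 30 hpf. Pooled, the *scl*-positive level was 53.2-fold the ectoderm marker-positive level (interval 50.4 to 56.1), and the *pks1*-positive level was 2.83-fold (2.46 to 3.24).

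The other 3 *trf* genes, which carry the same deposited name, had lower counts and were also highest in *scl*-positive cells, although the *scl*- and *pks1*-positive levels of HER_22244.t1 did not differ beyond counting error. HER_22246.t1 was at 342 CPM in *scl*-positive and 27.9 CPM in *pks1*-positive cells, against 5.17 CPM in ectoderm marker-positive cells. HER_22245.t1 was at 150.2, 14.4 and 2.35 CPM in those groups. The fourth, HER_22244.t1, had 42 UMIs and was chosen for mention after its values were seen, at 5.29, 4.50 and 0.157 CPM. Both that name and *irf4* are blastocoelar markers in the study's own cell type annotation, made on these libraries, so their place in *scl*-positive cells is not independent of it. The study's annotation also describes the transformer gene as similar to a phosphatase regulatory subunit, so its family name rests on the deposited label.

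Within the *scl*-positive group HER_40156.t1 was concentrated in part of the cells. Of 1935 *scl*-positive cells, 512 had at least 10 UMIs and together held 93.4% of the group's UMIs, with up to 209 in a cell. In the ectoderm marker-positive group 40 of 10954 cells held 68.7% of that group's UMIs. At a common depth of 500 UMIs per cell, 36.2% of *scl*-positive cells (34.1 to 38.5) and 10.0% of *pks1*-positive cells (7.74 to 12.7) had a *trf* UMI, against 1.61% of ectoderm marker-positive cells (1.38 to 1.87). How much free RNA adds to these shares was not tested. Before thinning the shares were 39.0%, 28.0% and 3.22%, at median depths of 1870, 1613.5 and 1607 UMIs, and 48, 12 and 146 cells were too shallow to thin. By library the thinned share in *scl*-positive cells was 0.282, 22.8, 68.1, 65.1 and 49.2% at 12, 16, 20, 24 and 30 hpf.

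Of 6 genes set against *trf* within the *scl*-positive cells, 5 were found more often in cells with a *trf* UMI. The 6 genes were picked because they were high in *scl*-positive cells, 4 of them after their values were seen, so they do not stand for immune genes in general. At 20 to 30 hpf and 500 UMIs per cell, 664 *scl*-positive cells had a *trf* UMI and 434 did not. *srcr177* (HER_42513.t1) had a UMI in 64.8% of the cells with *trf* (61.0 to 68.4), against 13.8% of those without (10.7 to 17.4). *nlr97* (HER_45255.t1) was found in 8.28% and 0.461% of these cells, *srcr152* (HER_14981.t1) in 7.83% and 0.691%, *clect/tm_5* (HER_4339.t1) in 6.63% and 0.922%, and *irf4* in 4.22% and 0.922%. The perforin-domain gene *macpfb.0_1* (HER_25163.t1) went the other way, with 0.151% and 5.07%. The 2 sets of cells come from the same 3 libraries. The *scl* gate also admits cells with ectoderm or gut markers, and how far such cells add to the set without *trf* was not tested.

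**Figure D2:**
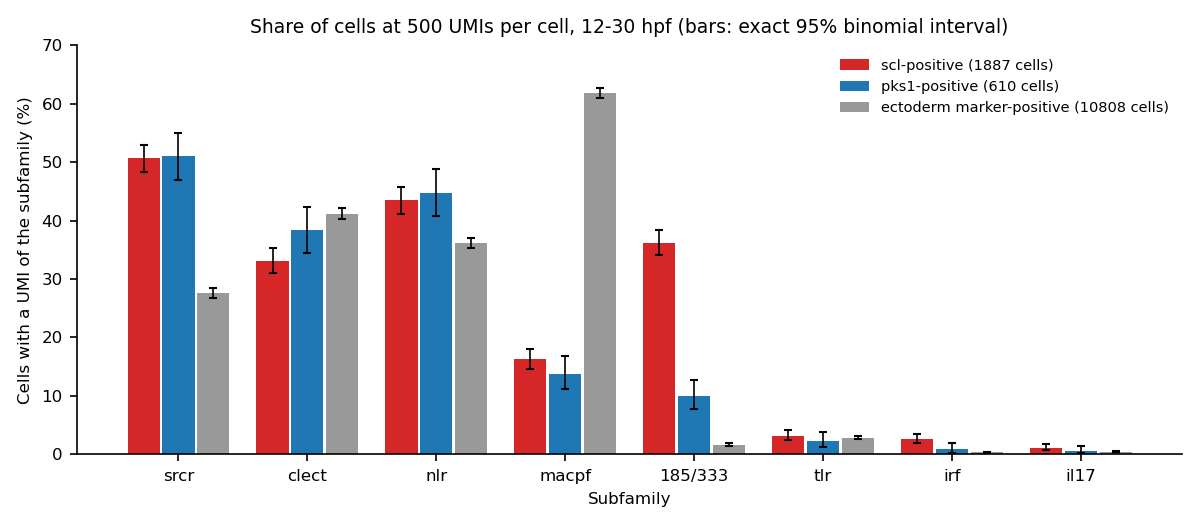
Bars show the share of cells with at least 1 UMI of each family, in percent, after thinning each cell to 500 UMIs, in *scl*-positive (1887), *pks1*-positive (610) and ectoderm marker-positive (10808) cells at 12 to 30 hpf; error bars are exact 95% binomial intervals. The share of *trf*, labelled by its deposited name, is 36.2% in *scl*-positive cells, the *srcr* share is 50.7 and 51.0% in the *scl*- and *pks1*-positive cells, and the *macpf* share is 61.9% in ectoderm marker-positive cells.

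Among the receptors, the *srcr* sum was higher in both mesodermal gates, in part through different genes. Their summed level was 2744 CPM in *scl*-positive and 1698 CPM in *pks1*-positive cells, against 687 CPM in ectoderm marker-positive cells. A *srcr* UMI was found in 50.7% of *scl*-positive and 51.0% of *pks1*-positive thinned cells, against 27.6% of ectoderm marker-positive cells. Of the 121 *srcr* genes, 9 were at least 2-fold higher and 3 at least 2-fold lower in *scl*-positive cells, and 11 were higher and 6 lower in *pks1*-positive cells. These are 7.44% higher and 2.48% lower for *scl*, against 6.26% and 6.7% of all features, and 9.09% higher and 4.96% lower for *pks1*, against 6.36% and 12.2%. There were 4 *srcr* genes (3.31%) higher in both gates, against 1.71% of all features.

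The *scl*-positive side was led by *srcr177* (HER_42513.t1). It measured 15.5, 33.8, 729, 2637 and 4936 CPM in *scl*-positive cells at 12, 16, 20, 24 and 30 hpf, against 9.60, 12.7, 10.7, 44.2 and 179.8 CPM in ectoderm marker-positive cells. In *pks1*-positive cells it was between 15.5 and 82.4 CPM. The pooled fold of *scl*-positive over ectoderm marker-positive cells was 28.5 (26.8 to 30.3), with the *scl*-positive value higher in 5 of 5 libraries. This receptor thus rose later in *scl*-positive cells than HER_40156.t1, with its highest value in the last library. A second such receptor, *srcr152* (HER_14981.t1), named here after its values were seen, was at 81.4 CPM in *scl*-positive and 0.901 CPM in *pks1*-positive cells, against 2.82 CPM in ectoderm marker-positive cells.

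The *pks1*-positive side was led by *srcr71* (HER_320.t1). It measured 373, 1342, 1067, 769 and 434 CPM in *pks1*-positive cells at 12 to 30 hpf, against 1.15, 9.08, 1.67, 2.11 and 0.637 CPM in ectoderm marker-positive cells. In *scl*-positive cells it was at 77.6, 62.0, 24.8, 45.4 and 28.5 CPM, which places them between the other groups in all 5 libraries. The pooled *pks1*-positive level was 466-fold that of ectoderm marker-positive cells (326 to 691) and 15.1-fold that of *scl*-positive cells. At 500 UMIs per cell 25.9% of *pks1*-positive and 2.23% of *scl*-positive cells had a *srcr71* UMI, against 0.0648% of ectoderm marker-positive cells. Cells with both *scl* and *pks1* at 12 hpf held 524 CPM, so *srcr71* was already present where both gate genes were.

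Further *srcr* genes shared this place at lower levels. *srcr142* (HER_47286.t1) was high in both gates, at 231 CPM in *pks1*-positive and 122 CPM in *scl*-positive cells, against 13.4 CPM in ectoderm marker-positive cells, and was higher in both gates in 5 of 5 libraries. *srcr54* (HER_319.t1) was at 36.9 CPM in *pks1*-positive and 1.76 CPM in *scl*-positive cells, against 0.104 CPM in ectoderm marker-positive cells. A second feature named *srcr177* (HER_42516.t1), noted after its values were seen, had 25 of its 31 UMIs in *pks1*-positive cells and none in *scl*-positive or ectoderm marker-positive cells, where 3 counts would be 0.756 and 0.157 CPM. One name therefore covered a gene of *scl*-positive cells and a gene of *pks1*-positive cells.

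**Figure D3:**
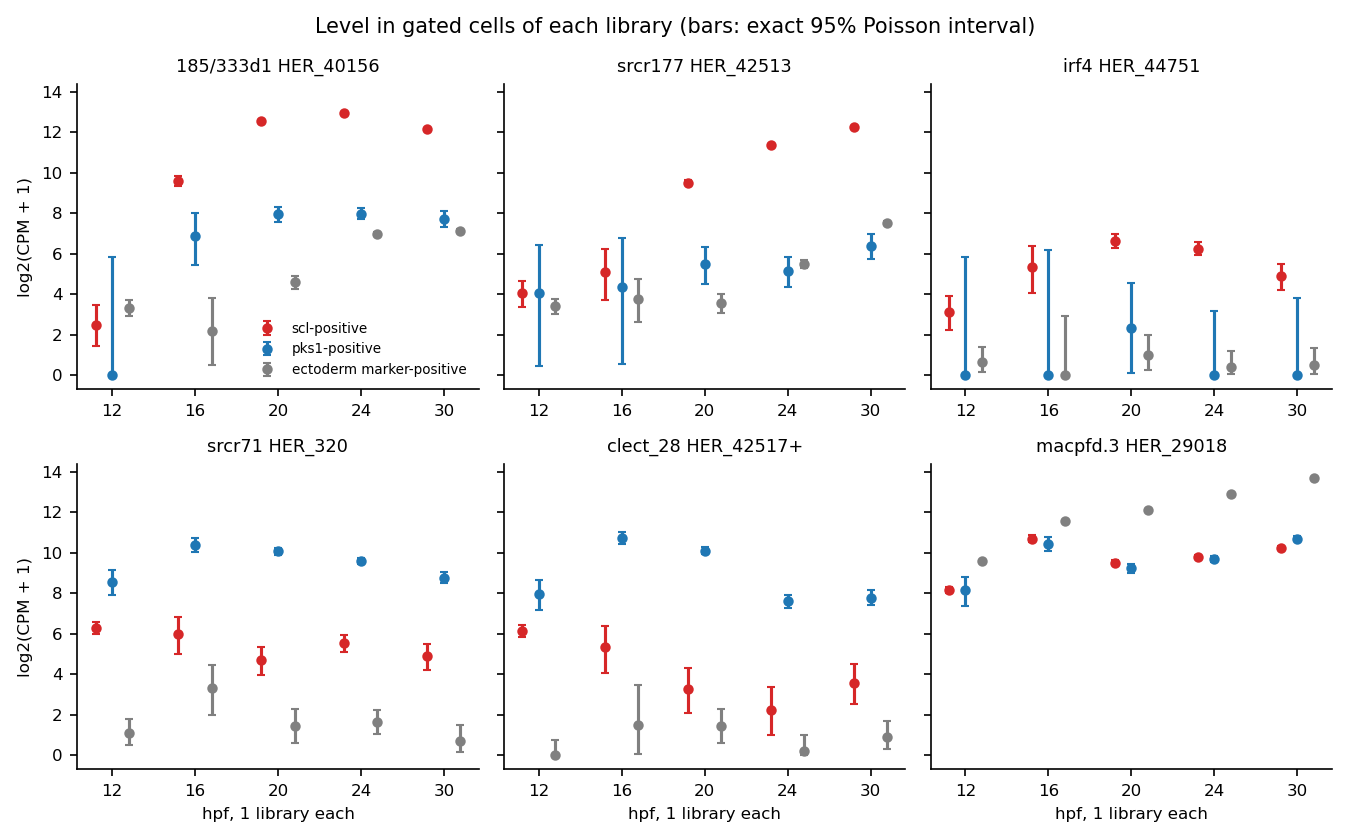
Each panel shows 1 gene, with log2(CPM + 1) on the y axis and the library (12 to 30 hpf) on the x axis, in *scl*-positive (red), *pks1*-positive (blue) and ectoderm marker-positive (grey) cells; bars are exact 95% Poisson intervals. The red points lie highest for HER_40156.t1, *srcr177* and *irf4* from 16 hpf on, the blue points for *srcr71* and *clect_28* in 5 of 5 libraries, and the grey points for *macpfd.3* in 5 of 5.

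The C-type lectin genes were divided among the groups. Of 176 *clect* genes, 9 were at least 2-fold higher and 5 at least 2-fold lower in *scl*-positive cells, and 6 were higher and 11 lower in *pks1*-positive cells. The shares higher, 5.11% for *scl* and 3.41% for *pks1*, and those lower, 2.84% and 6.25%, were all below the shares of all features, 6.26%, 6.36%, 6.7% and 12.2%. Their summed level was 883 CPM in *scl*-positive and 1129 CPM in *pks1*-positive cells, against 1113 CPM in ectoderm marker-positive cells. The family sum therefore hid opposite patterns of its genes.

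*clect_28* (HER_42517.t1_HER_42519.t1) was a gene of *pks1*-positive cells, at 249, 1692, 1087, 193 and 219 CPM at 12 to 30 hpf, against 0, 1.82, 1.67, 0.176 and 0.849 CPM in ectoderm marker-positive cells. Its pooled fold was 822 (456 to 1657), and *scl*-positive cells held 28.7 CPM. At the other end, *clect_110* (HER_39999.t1) measured 14.0, 28.2, 29.2, 49.1 and 85.4 CPM in *scl*-positive cells, against 36.3, 94.4, 225, 363 and 907 CPM in ectoderm marker-positive cells. The *clect/scop/7tm* gene (HER_19952.t1) was at 15.4 CPM in *scl*-positive and 23.4 CPM in *pks1*-positive cells, against 100.4 CPM in ectoderm marker-positive cells. *clect/tm_5* (HER_4339.t1), named here after its values were seen, was a gene of *scl*-positive cells, at 92.5 CPM there and 2.70 CPM in *pks1*-positive cells, against 6.84 CPM in ectoderm marker-positive cells. *clect/fn3_1* (HER_5959.t1), which also has fibronectin type III domains in its name, was present in all 3 groups, at 82.6, 21.6 and 54.8 CPM in *scl*-positive, *pks1*-positive and ectoderm marker-positive cells.

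The intracellular NLR receptors were broadly spread. Their summed level was 1277 CPM in *scl*-positive and 1332 CPM in *pks1*-positive cells, against 960 CPM in ectoderm marker-positive cells, and a *nlr* UMI was found in 43.5% and 44.8% of thinned cells, against 36.2%. Of 186 genes, 11 were at least 2-fold higher in *scl*-positive and 15 in *pks1*-positive cells, which are 5.91% and 8.06%, against 6.26% and 6.36% of all features. None was at least 2-fold lower in either on the log2(CPM + 5) scale, where *nlr97* (HER_45255.t1) was nearest in *pks1*-positive cells, at -0.99. The gene with the most UMIs, *nlr182* (HER_25927.t1_HER_25931.t1_HER_25937.t1), was at 64.8 CPM in *scl*-positive and 70.3 CPM in *pks1*-positive cells, against 76.8 CPM in ectoderm marker-positive cells. *nlr10* (HER_3525.t1) was at 42.8 and 27.9 CPM, against 53.0 CPM.

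Single NLR genes stood apart, again with one name on different patterns. *nlr97* (HER_45255.t1), named here after its values were seen, was at 96.0 CPM in *scl*-positive and 1.80 CPM in *pks1*-positive cells, against 8.51 CPM in ectoderm marker-positive cells, a fold of 11.3 (9.37 to 13.6) that held in 4 of 5 libraries and was absent at 12 hpf. Its namesake HER_32310.t1, with more UMIs, was at 71.6 and 64.0 CPM, against 36.2 CPM. Chosen in the same way, *nlr66* (HER_48108.t1) had 33 of its 46 UMIs in *pks1*-positive cells.

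The Toll-like receptors were low in every group. The 18 detected *tlr* genes summed to 77.6 CPM in *scl*-positive and 51.3 CPM in *pks1*-positive cells, against 58.5 CPM in ectoderm marker-positive cells, and the thinned shares of 3.18% (2.43 to 4.07), 2.30% (1.26 to 3.82) and 2.84% (2.54 to 3.17) had overlapping intervals. *tlrp19* (HER_28361.t1) was at 27.5, 22.5 and 24.3 CPM in *scl*-positive, *pks1*-positive and ectoderm marker-positive cells. *tlrl_11* (HER_22110.t1) was at 3.02 CPM in *scl*-positive and 1.80 CPM in *pks1*-positive cells, against 12.0 CPM in ectoderm marker-positive cells. *tlr143* (HER_34064.t1), named after its values were seen, was 7.86-fold higher (5.30 to 11.8) in *scl*-positive cells, at 17.6 CPM against 2.24 CPM.

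Of the signalling genes, *irf4* (HER_44751.t1) was a gene of *scl*-positive cells. The gene measured 7.76, 39.4, 99.2, 75.0 and 28.5 CPM in *scl*-positive cells at 12 to 30 hpf, against at most 1.00 CPM in ectoderm marker-positive cells. A single UMI fell in *pks1*-positive cells. The pooled fold over ectoderm marker-positive cells was 90.3 (48.0 to 191). The other 2 *irf* features differed from it: *irf* (HER_23840.t1) was at 10.6, 3.60 and 8.72 CPM in the 3 groups, and *irf2bp* (HER_17960.t1), whose name is that of a binding protein of IRF2 rather than of an IRF, at 3.28, 8.11 and 1.36 CPM.

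The *il17* features named as ligands had few UMIs. *il17-20* (HER_33916.t1) had 57 UMIs, 40 of them in *scl*-positive cells (10.1 CPM) and none in *pks1*-positive cells, where 3 counts would be 2.70 CPM, against 2 in ectoderm marker-positive cells (0.104 CPM). *il17-24* (HER_2820.t1) had 21 UMIs, of which none fell in *scl*-positive or *pks1*-positive cells, against 2 in ectoderm marker-positive cells. The third, *il17rl* (HER_40406.t1_HER_40407.t1), is named as receptor-like and had 847 UMIs, at 16.9 CPM in *scl*-positive and 17.1 CPM in *pks1*-positive cells, against 9.66 CPM in ectoderm marker-positive cells.

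As a sum, the perforin-domain genes gave the reverse picture of the transformer effectors, because *macpfd.3* (HER_29018.t1) belonged to the ectoderm gate. Of 26 *macpf* genes, only the 2 named *macpfd.3* (7.69%) were at least 2-fold lower in *scl*-positive cells, and the same 2 in *pks1*-positive cells. The shares over all features were 6.7% and 12.2%. At least 2-fold higher were 2 in *scl*-positive and 0 in *pks1*-positive cells, against 6.26% and 6.36% of all features. *macpfd.3* (HER_29018.t1) measured 288, 1645, 722, 891 and 1208 CPM in *scl*-positive cells at 12 to 30 hpf, against 756, 3014, 4456, 7561 and 12943 CPM in ectoderm marker-positive cells. In *pks1*-positive cells it was at 279.8, 1381, 596, 831 and 1649 CPM. Neither mesodermal gate reached the ectoderm value in any library. Pooled, the *scl*-positive level was 0.118 times the ectoderm marker-positive level (0.114 to 0.123). At 500 UMIs per cell 11.7% of *scl*-positive and 10.8% of *pks1*-positive cells had a UMI, against 59.3% of ectoderm marker-positive cells.

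It was found across ectoderm markers rather than under one. At 20 to 30 hpf the level was 11071 CPM in cells with at least 2 UMIs of the apical markers *hbn*, *six3*, *foxq2-1* or *fzd5/8*, 10115 CPM with *hox7* or *wnta*, 6738 CPM with *msx*, *dlx* or *wnt3*, 8055 CPM with *onecut* and 12145 CPM with *foxabl*. These sets of cells overlap. A second *macpfd.3* feature (HER_29000.t1) was at 28.7 CPM in *scl*-positive and 40.5 CPM in *pks1*-positive cells, against 233 CPM in ectoderm marker-positive cells, and reads may be shared between the copies.

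One perforin-domain gene behaved differently. *macpfb.0_1* (HER_25163.t1), chosen after its values were seen, was highest in the cells of none of the gates, at 105 CPM pooled and 235 CPM at 24 hpf. It was at 43.1 CPM in *scl*-positive and 3.60 CPM in *pks1*-positive cells, against 9.97 CPM in ectoderm marker-positive cells, with 83.3 CPM at 24 hpf and 98.9 CPM at 30 hpf in *scl*-positive cells and at most 5.63 CPM earlier. The *scl*-positive value was above the ectoderm marker-positive value in 2 of 5 libraries. Within the *scl*-positive cells at 20 to 30 hpf it was at 286 CPM where the skeletogenic gene *alx1* was also present, against 38.2 CPM where it was not. The *trf* gene HER_40156.t1 ran the other way, at 741 CPM with *alx1*, against 7211 CPM without it, and *srcr177* (HER_42513.t1) was at 770.2 CPM with *alx1*, against 3043 CPM without it. Without HER_29018.t1 the *macpf* sum was 139.6 CPM in *scl*-positive and 119 CPM in *pks1*-positive cells, against 309 CPM in ectoderm marker-positive cells.

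Over development the summed level of the 537 genes was 3043, 3550, 3085, 6132, 7750, 10580 and 15045 CPM at 6, 9, 12, 16, 20, 24 and 30 hpf. Without *macpfd.3* (HER_29018.t1), which measured 107, 151, 582, 2222, 3065, 5241 and 9357 CPM, the sum was 2936, 3399, 2502, 3910, 4684, 5339 and 5687 CPM. The increase was thus mostly that of 1 gene, with an 87.7-fold difference between 30 and 6 hpf (81.0 to 95.2). *clect_110* was at 657 CPM at 30 hpf, against 31.7 CPM at 6 hpf.

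The families had different time courses. The *trf* sum was 2.28, 39.8, 8.62, 222, 1173, 1661 and 1004 CPM, with a first small maximum at 9 hpf, and *nlr* genes were at 724, 815, 777, 1284, 1279, 1042 and 1120 CPM, with the highest sums at 16 and 20 hpf. The *tlr* sum was highest at 6 hpf, at 209, 146, 61.9, 107, 61.1, 46.6 and 74.8 CPM. The *srcr* sum was 701, 922, 712, 959, 938, 1237 and 1697 CPM, of which *srcr177* (HER_42513.t1) made 462 CPM at 24 hpf and 962 CPM at 30 hpf.

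On a log2(CPM + 1) scale 129 genes (24.0%) were at least 2-fold higher and 111 (20.7%) at least 2-fold lower at 30 hpf than at 6 hpf, against 27.1% and 24.4% of all features. With at least 100 UMIs 94 of 235 genes (40.0%) were higher, against 31.3% of features of that depth. The median log2 ratio was 0.54 for *nlr* (65 genes higher, 26 lower) and -1.01 for *macpf* (3 higher, 13 lower), against 0.18 over the 537 genes and 0.10 over all features. *clect* (33 higher, 40 lower) and *srcr* (20 higher, 26 lower) were mixed.

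**Figure D4:**
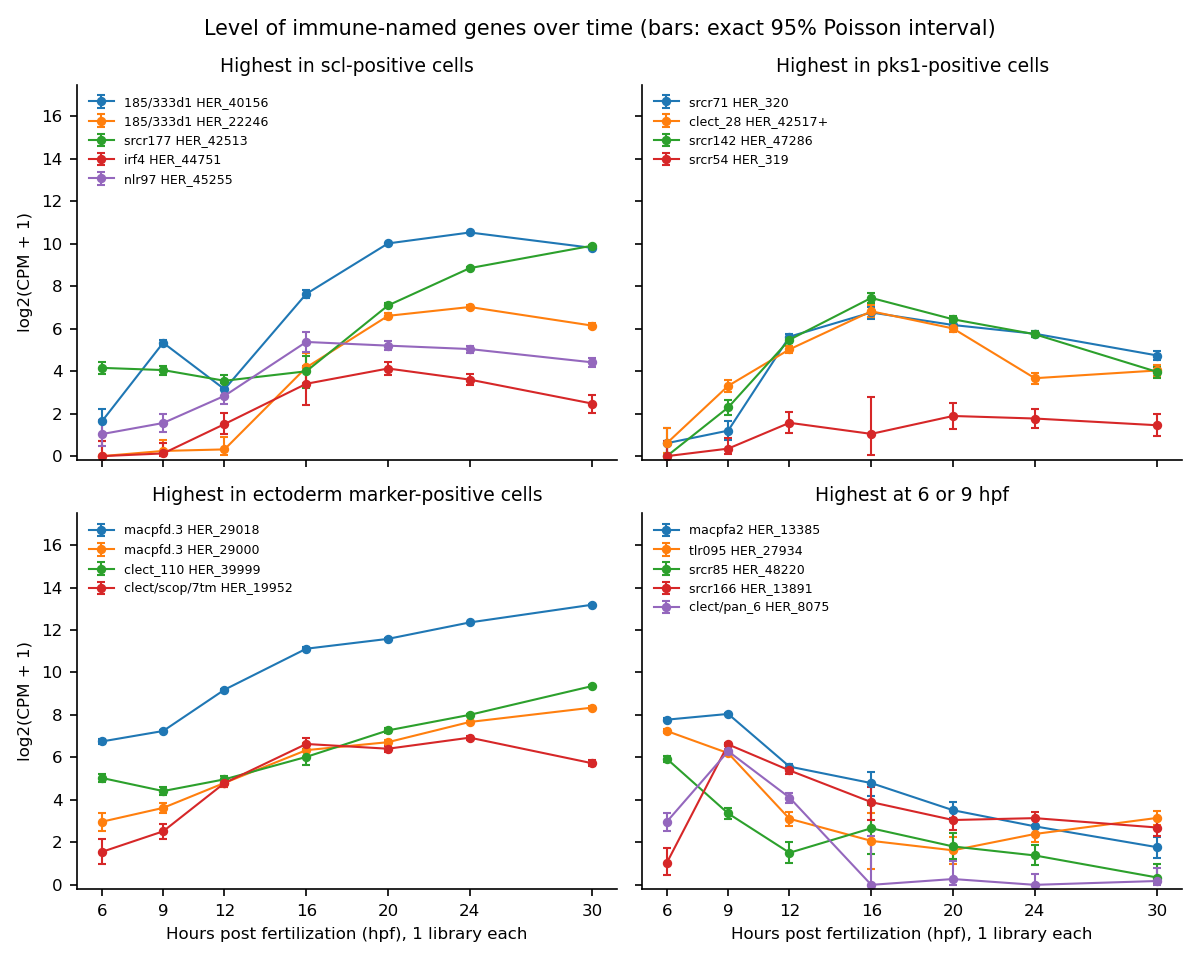
log2(CPM + 1) per library against hours post fertilization for 18 genes, grouped by the cells in which they were highest at 12 to 30 hpf, with the last panel for genes highest at 6 or 9 hpf; bars are exact 95% Poisson intervals. HER_40156.t1 and *srcr177* climb after 12 and 16 hpf, the genes of *pks1*-positive cells other than *srcr54* have their maximum at 16 hpf, and *macpfa2* and *tlr095* decline after 9 and 6 hpf.

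Of the genes higher in *pks1*-positive cells, *srcr71*, *clect_28* and *srcr142* were highest at 16 hpf in the whole libraries and lower afterwards. *srcr71* was at 0.526, 1.30, 48.4, 108, 71.3, 53.4 and 25.7 CPM over the 7 libraries, and *clect_28* at 0.526, 8.91, 31.6, 112, 63.6, 11.7 and 15.4 CPM. *srcr142* was not detected at 6 hpf (3 counts would be 0.526 CPM) and had its highest level, 174 CPM, at 16 hpf. Others were low and highest at 20 hpf, *srcr54* with 2.71 CPM and *nlr66* (HER_48108.t1) with 2.92 CPM. Their intervals at 20 and 24 hpf overlapped, so the time of their maximum is not resolved. The genes of *scl*-positive cells had no common time of highest level. HER_40156.t1 was highest at 24 hpf, with 1480 CPM, *srcr177* (HER_42513.t1) at 30 hpf and *irf4* at 20 hpf, with 16.5 CPM. Earlier were *srcr152* (HER_14981.t1), with 75.7 CPM at 9 hpf, *clect/tm_5* (HER_4339.t1), with 36.7 CPM at 12 hpf, and *nlr97* (HER_45255.t1), with 40.6 CPM at 16 hpf. For *irf4*, *clect/tm_5* and *nlr97* the interval of the highest library overlapped that of a neighbouring one.

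Another set belonged to the youngest embryos. *macpfa2* (HER_13385.t1) was at 218, 264, 46.4, 26.7, 10.4, 5.75 and 2.41 CPM over the 7 libraries. *tlr095* (HER_27934.t1), the *tlr* gene with the most UMIs, was at 151, 72.5, 7.63, 3.20, 2.08, 4.25 and 7.90 CPM, so the high early *tlr* sum was largely this gene. The 2 *srcr85* genes HER_48220.t1 and HER_48237.t1 were at 0.268 and 0.134 CPM at 30 hpf, against 60.2 and 27.2 CPM at 6 hpf. Other genes, chosen after their values were seen, had their maximum at 9 hpf: *srcr166* (HER_13891.t1) was at 1.05 CPM at 6 hpf, 96.9 CPM at 9 hpf and 40.9 CPM at 12 hpf, and *clect/pan_6* (HER_8075.t1) at 6.84, 77.3 and 16.3 CPM in these libraries.

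More of the genes than of all features had their highest level at 16 hpf. Counted from the 6 hpf to the 30 hpf library, 117, 86, 23, 141, 74, 33 and 63 of the 537 genes had their highest level there, which are shares of 21.8, 16.0, 4.28, 26.3, 13.8, 6.15 and 11.7%. Over all features the shares in the same order were 26.9, 15.1, 8.91, 18.7, 10.4, 6.08 and 13.9%. Among *nlr* genes 56 (30.1%) were highest at 16 hpf and 38 (20.4%) at 20 hpf. The 16 hpf library is the smallest, with 486 cells and 936734 UMIs in all, so low genes can reach a high CPM there with few counts. Among genes with at least 100 UMIs 23.8% were highest at 16 hpf, against 16.0% of features of that depth, and 9.79% at 20 hpf, against 9.44%.

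**Figure D5:**
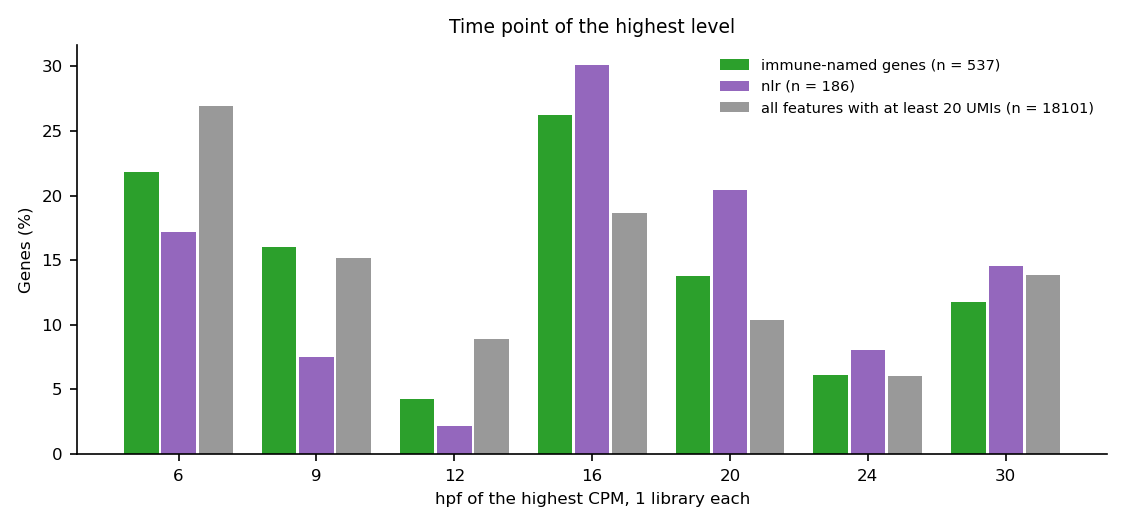
Bars give the share of genes, in percent, whose highest CPM fell in each of the 7 libraries, for the 537 immune-named genes (green), the 186 *nlr* genes (purple) and all 18101 features with at least 20 UMIs (grey). The green and purple bars exceed the grey bar at 16 hpf (26.3 and 30.1%, against 18.7%) and lie below it at 6 and 12 hpf.

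Some genes of the same name had opposite time courses. Of 70 names with at least 2 genes of 50 UMIs or more, 14 covered both a gene at least 2-fold higher and a gene at least 2-fold lower at 30 hpf than at 6 hpf, and the other 56 did not. Genes of different names were not compared in this way. The feature numbers did run together in places: HER_42513.t1 (*srcr177*) and HER_42514.t1 (*srcr182*), both higher in *scl*-positive cells, are numbered next to HER_42516.t1 (*srcr177*) and *clect_28*, both of *pks1*-positive cells. *srcr182*, named after its values were seen, was at 27.7 CPM in *scl*-positive and 3.60 CPM in *pks1*-positive cells, against 4.70 CPM in ectoderm marker-positive cells. Genome positions were not used here.

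Immune signalling genes outside these families were counted by name, among them *myd88*, *irak*, *traf*, *il1r*, *mif* and *sarm* genes, which gave 80 features. Of these, 16 (20.0%) were at least 2-fold higher in *scl*-positive cells and 16 (20.0%) in *pks1*-positive cells, against 6.26% and 6.36% of all features. At least 2-fold lower were 2 (2.5%) and 6 (7.5%), against 6.7% and 12.2% of all features. At 30 hpf 25 (31.2%) were at least 2-fold higher and 23 (28.8%) at least 2-fold lower than at 6 hpf, against 27.1% and 24.4% of all features. Those named next were chosen after their values were seen. *myd88l1* (HER_47620.t1), named for the adaptor of Toll-like receptors, was at 65.5 CPM in *scl*-positive and 0.901 CPM in *pks1*-positive cells, against 1.72 CPM in ectoderm marker-positive cells. *irakl* (HER_38326.t1), named for a kinase that acts below MyD88, was at 24.2 CPM in *scl*-positive and 123 CPM in *pks1*-positive cells, against 9.03 CPM in ectoderm marker-positive cells. *traf6* (HER_13917.t1), an adaptor of the same pathway, was at 46.1 and 41.4 CPM, against 10.4 CPM. Genes of related names did not all share this. *myd88l2* (HER_3108.t1), with 795 UMIs against 412 for *myd88l1* (HER_47620.t1), was at 3.53 and 1.80 CPM, against 15.5 CPM. The other *traf* features lay within 2-fold on the log2(CPM + 5) scale. Some *sarm*-named features were higher, as *sarmr6* (HER_33012.t1) at 61.5 CPM in *scl*-positive cells, against 1.31 CPM, and others were not. The *mif4* gene in this list is also a pigment marker used above, so the list is not independent of the cell check.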

How the data were processed

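Per the labels, libraries were made with the Chromium Single Cell 3′ v3.1 kit, and the authors' processing notes name Cell Ranger 3.1.0 and Seurat 4.0. The authors deposited raw UMI counts per gene and barcode for each of the 7 libraries, unnormalized. The aligner settings, genome build and annotation are not given in the sources used here. Names are those in the deposited feature lists, except that the transformer (*trf*) family is called by its current name and its genes by their feature IDs, because the older name is a pair of numbers, and no sequences were used here.

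Cells with over 200 and under 4000 genes and under 10000 UMIs were kept, 23156 of 23173 barcodes. CPM are the summed counts of a gene divided by all UMIs of the cells. Poisson, ratio and Clopper-Pearson intervals are exact, at 95%. A call is a ratio of at least 2-fold on log2(CPM + 1) between 30 and 6 hpf, or on log2(CPM + 5) between cell groups pooled over 12 to 30 hpf, over the 18101 features with at least 20 UMIs; with 1 library per time point no p-value was computed. Cells were thinned to 500 UMIs for shares. No doublet caller was run: cells with both *scl* and *pks1* form a group of their own, and an alternative left out the deepest 10% of cells. The rule for named genes took the 3 with most UMIs in each family and, among those with at least 50 UMIs, the 4 with the highest and the 4 with the lowest *scl* ratio, the 4 with the highest *pks1* ratio and the 4 at each end of the change over time. Others are named as chosen after their values were seen. The genes, lists and gates were chosen with earlier results of these data known. From the list of 80 signalling genes 1 name of another family, *irak1bp1l*, was removed.

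Alternatives were other cell filters, size factors, pseudocounts, UMI minimums, gates, depths, weights of libraries and each late library left out. The scripts were tested on simulated data. Python 3.11.15, numpy 2.4.6, scipy 1.17.1, pandas 2.3.3 and matplotlib 3.10.9 were used.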

Additional observations from a re-analysis of the deposited data

How the results depend on the processing

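No fit with a replicate block was made, since each time point had 1 library. Cell groups were compared pooled over 12 to 30 hpf and, for some named genes, library by library. Single genes were re-run only where they had been picked for large ratios, and no alternative reversed the direction of any of these. The smallest of their main log2 ratios in size was -2.6, for *clect_110* in *pks1*-positive cells, which left little room for a reversal. The directions of the other genes were not checked. Among the values of single genes and the counts of called signalling genes from the list of 80, 212 were classed as unchanged and 68 as moved. The counting interval applies to single genes only, and these 2 numbers do not separate single genes from counts. Counts of genes moved most with the pseudocount. With 5 CPM in place of 1 CPM, 53 genes were higher and 42 lower at 30 hpf than at 6 hpf, in place of 129 and 111. Of all 18101 features 2977 were then higher and 3065 lower, in place of 4910 and 4409. With 1 CPM in place of 5 CPM, 64 genes were higher and 35 lower in *scl*-positive cells, in place of 38 and 11, and 83 were higher and 85 lower in *pks1*-positive cells, in place of 37 and 20. Of all features 1813 were then higher and 2027 lower in *scl*-positive cells, in place of 1134 and 1213. In *pks1*-positive cells 1882 features were higher and 4310 lower, in place of 1151 and 2212. With at least 100 UMIs, 58 of 235 genes were lower at 30 hpf and 24 higher in *pks1*-positive cells, against 3669 and 948 of 13075 features. At 24 hpf against 9 hpf, 82 of the genes and 2945 of all features were higher. Thinning to 500 UMIs before gating gave 20 genes lower in *scl*-positive and 48 lower in *pks1*-positive cells, against 1675 and 3351 of all features. The number lower in *scl*-positive cells was 6 without the 24 hpf library and 7 against every cell without *scl* and *pks1*. Over all features that number was 1098 and 1027 in these runs, in place of 1213. The share of *scl*-positive cells with a *trf* UMI was 39.0% unthinned and 38.8% at 1000 UMIs, in place of 36.2%, and that of ectoderm marker-positive cells 3.22% and 2.10%, in place of 1.61%; these depths were added after seeing the data, as was an ectoderm gate without mesodermal marker UMIs, which gave 39 higher and 10 lower genes for *scl* and 39 and 21 for *pks1*. With that gate 1170 of all features were higher and 1219 lower for *scl*, and 1192 and 2216 for *pks1*. The log2 ratio of HER_40156.t1 in *scl*-positive over ectoderm marker-positive cells ran from 3.84 to 7.75 over the alternatives, and that of *macpfd.3* from -4.35 to -2.70. The *pks1*-positive values at 12 and 16 hpf rest on 37 and 24 cells.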

Other observations

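The *trf* gene with the most UMIs (HER_40156.t1) had an early signal at 9 hpf that its copies did not share. In that library 425 UMIs lay in 377 cells, 9.35% of all cells, with at most 4 in a cell. HER_22246.t1 then made 0.468% of the UMIs of the 2 genes (0.0568 to 1.68), against 7.92, 8.53, 8.02 and 7.24% at 16, 20, 24 and 30 hpf. Among the cells in none of the gates, 394 cells at 20 to 30 hpf with at least 2 UMIs of *gatac*, *hhex* or *astacin4* held 7326 CPM of HER_40156.t1 and 3979 CPM of *srcr177* (HER_42513.t1) although no *scl* UMI was seen in them.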
